A study of Xenopus tropicalis with 52 samples.

Results

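*Xenopus tropicalis* embryos in which Nodal and BMP signaling were both blocked (Nodal/BMP LOF) were compared at the late blastula (stage 9+) with DMSO-treated control embryos, using exon and intron counts of poly(A) RNA. The comparison holds 6 of the 52 samples of the series, 3 of each group, chosen by their titles and paired by replicate number. Nodal/BMP LOF embryos were out-bred wild type (Nigerian strain) kept from the 8-cell stage in 100 µM SB431542, an inhibitor of the type I receptors that carry Nodal signals, and 10 µM LDN193189, an inhibitor of BMP type I receptors. Control embryos were uninjected and received DMSO, the solvent of both inhibitors, and neither group was given a morpholino. The same experiment holds both single losses, Nodal LOF (100 µM SB431542 alone) and BMP LOF (10 µM LDN193189 alone), with 3 libraries each. Each library was made from 10 to 15 whole embryos, so the counts average over all cells, and fewer cells of a type cannot be told apart from less RNA per cell. The inhibitors act on receptors that also serve other ligands of the TGF-β superfamily, and no protein or phosphorylation readout was part of these files.

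Nodal ligands signal through Smad2 and the cofactor FoxH1, mainly in the vegetal hemisphere and the marginal zone of the blastula, and are known as the inducers of mesoderm and endoderm. BMP ligands signal through Smad1, mainly on the ventral side and in the animal cap, where they favour ventral and epidermal over dorsal and neural fates. Cells that receive neither signal are known in explants to turn on neural genes.

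A Nodal/BMP LOF library held 38299774 to 39152760 exon counts and 1518958 to 1648329 intron counts. A control library held 32716602 to 40895797 exon counts and 1320113 to 1750926 intron counts. The libraries of a replicate number deviated together from their group means (Pearson's r of 0.746 to 0.81 across genes in 3 pairs). In the 6 pairs of different numbers r was -0.553 to -0.222. Deviations from a group mean cancel out within each gene, so these negative values follow from the positive ones and add no evidence. Replicate number was a block in the fit because the comparison is defined as paired by it. Of the 9 later tissue markers found in the files (muscle, blood, neuron, cartilage and gut genes), which a blastula should lack, 6 had no library above 3 counts in Nodal/BMP LOF embryos and 3 in control embryos, and they summed to 4.44 to 6.35 CPM in Nodal/BMP LOF embryos and 4.1 to 5.17 CPM in control embryos.

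Blocking Nodal and BMP together lowered more genes than it raised, and by larger factors. In exon counts, 360 of 16001 genes tested were lower and 92 higher in Nodal/BMP LOF embryos at an adjusted p of at most 0.1 (edgeR's quasi-likelihood test), which is 2.25% and 0.575% of the genes tested. The median change was -1.56 on the log2 scale among the genes that fell and 0.64 among those that rose, and 230 falls but only 24 rises reached 2-fold. The 3 Nodal/BMP LOF libraries lay below all 3 control libraries for 289 of the genes called lower and above them for 58 of those called higher, while among all genes tested 4.24% lay below and 2.32% above in this way. The size of these sets depended on the fit. Without the replicate block, 81 genes were lower and 11 higher. Leaving out replicate 2 gave 39 and 8, replicate 3 gave 131 and 43, and replicate 1 gave 429 and 176. A fit of the 12 libraries without morpholino, chosen after seeing the data, gave 784 and 452. In all 6 of these fits 33 genes were lower and 4 higher, and the 4 were *lhx5*, *cyp26a1*, *fzd4* and *plod2*.

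The 10 largest falls by a rule of level and agreement between pairs included genes of the head organizer, the endoderm and the bottle cells. *cer1*, which encodes the secreted Nodal, BMP and Wnt antagonist Cerberus, was at 21.5, 24.9 and 3.68 TMM-normalized exon counts in Nodal/BMP LOF embryos, against 2570, 1135 and 662.5 in control embryos. Its fitted change was -6.48 ± 0.53 (log2 fold change ± SE, adjusted p = 1.60e-05). *hhex*, a homeobox gene of the anterior endoderm, was at 17.6, 44.1 and 20.2 in Nodal/BMP LOF embryos, against 1453, 1210 and 951.5 in control embryos, a change of -5.55 ± 0.54. No Nodal/BMP LOF library of either gene came within a factor of 10 of the lowest control library. *plekhg5*, which bottle cells need to constrict, was even across replicates at 151, 184 and 171 in Nodal/BMP LOF embryos, against 4039, 4138 and 4183 in control embryos (-4.66 ± 0.45). *otx2*, a homeobox gene of the anterior organizer and later of the forebrain, was at 511, 426 and 144 in Nodal/BMP LOF embryos, against 8913, 6215 and 4885 in control embryos (-4.27 ± 0.61). The others were the protocadherin gene *pcdh8.2* (-5.44 ± 0.91), the cotransporter gene *slc12a3.2* (-5.28 ± 0.61), the zinc finger gene *osr1* (-4.78 ± 0.76), *frzb2*, which encodes the Wnt antagonist Crescent (-4.68 ± 0.39), the transporter gene *slc5a8* (-4.20 ± 0.61) and *fst*, which encodes the activin and BMP antagonist follistatin (-3.91 ± 0.63). All 10 fell in each of the 3 pairs.

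The 10 largest rises by the same rule ran from 1.06 to 1.97 on the log2 scale. *hesx1*, a homeobox gene of the anterior neural plate, was at 59.6, 104 and 78.1 counts in Nodal/BMP LOF embryos, against 14.3, 29.7 and 17.9 in control embryos (1.97 ± 0.46, adjusted p = 0.0313). *fzd4*, a Frizzled receptor gene, was at 4671, 3831 and 4796 in Nodal/BMP LOF embryos, against 1482, 1296 and 1689 in control embryos (1.57 ± 0.16, adjusted p = 2.56e-05). *cyp26a1*, whose product degrades retinoic acid, was at 4046, 7342 and 4105 in Nodal/BMP LOF embryos, against 1847, 1790 and 1533 in control embryos (1.53 ± 0.17). *lhx5*, a LIM homeobox gene of the anterior neural plate, was at 14970, 13990 and 11530 in Nodal/BMP LOF embryos, against 7612, 6009 and 5796 in control embryos (1.06 ± 0.12). The groups did not overlap for any of these 4 genes. The others were *plod2*, which encodes a collagen lysyl hydroxylase (1.92 ± 0.15), *hes7.1*, a bHLH repressor gene (1.55 ± 0.39), the homeobox gene *meis3* (1.16 ± 0.15), the zinc finger gene *sall3* (1.14 ± 0.27), *ggh.2*, which encodes a gamma-glutamyl hydrolase (1.1 ± 0.24), and *pdgfa*, which encodes a ligand that guides mesoderm cells (1.06 ± 0.18). For *sall3* the groups overlapped across replicates (1059, 770 and 470.5 counts in Nodal/BMP LOF embryos, against 752, 266 and 144.5 in control embryos), although it was higher within each pair. It was called with the block (adjusted p = 0.0316) and not without it (adjusted p = 1.00). Of the other rises *hesx1*, *hes7.1*, *ggh.2* and *pdgfa* were not called without the block either (adjusted p = 0.434, 0.119, 1.00 and 0.103), and of the 10 falls *slc5a8* was not (adjusted p = 0.113).

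**Figure D1:**
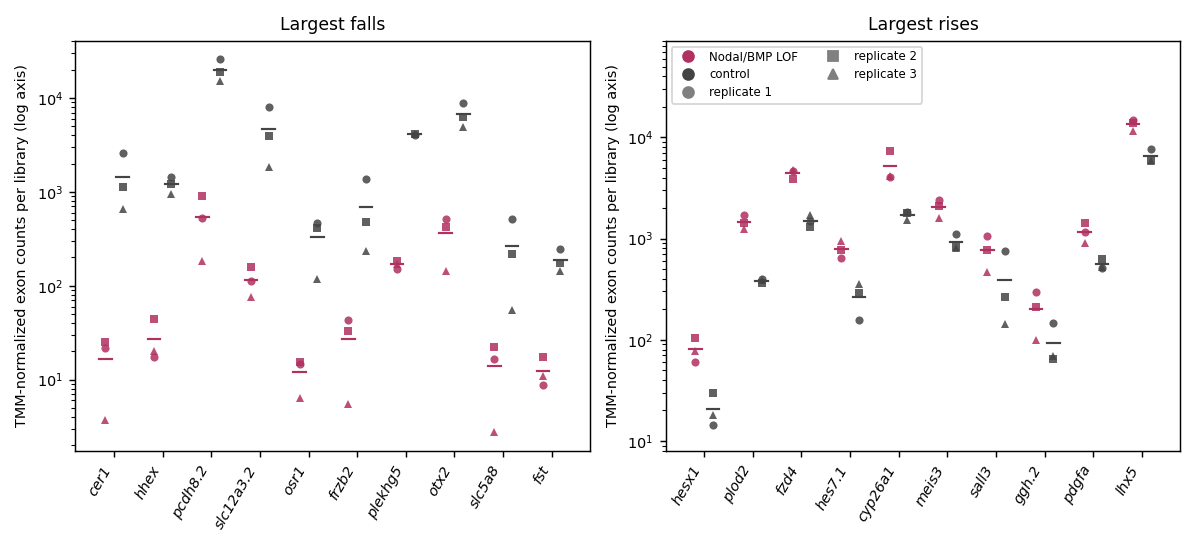
TMM-normalized exon counts (log axis) in each of 3 Nodal/BMP LOF (red) and 3 control (grey) libraries for the 10 largest falls and the 10 largest rises; the symbol shape gives the replicate number and the bar the mean. All Nodal/BMP LOF points of the 10 falls lie below all control points, while among the rises *sall3* and *ggh.2* overlap between groups.

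Nodal's own pathway genes did not all fall. Of the 12 ligands, cofactors and antagonists, all tested, 4 were called lower and 1 higher, with a median change of -0.43 beside 0.00 over all genes tested. Without the block, and without replicate 2 or replicate 3, 4 were lower and none higher. The zygotic ligand gene *nodal1* was at 59.6, 148 and 57.9 counts in Nodal/BMP LOF embryos, against 801, 1120 and 988.5 in control embryos (-3.60 ± 0.38). *nodal2* was at 160.2, 307 and 167 in Nodal/BMP LOF embryos, against 975, 1409 and 1022 in control embryos (-2.49 ± 0.22). The feedback inhibitor gene *lefty* was at 863, 1240.0 and 569 in Nodal/BMP LOF embryos, against 5657, 5442 and 4484 in control embryos (-2.63 ± 0.32). Neither these genes nor *cer1* overlapped between groups. The early ligand genes *nodal5* and *nodal6*, which are switched on before Nodal signals are received, had changes of 0.36 ± 0.45 and 0.56 ± 0.42 and were not called, and neither were *nodal* (0.52 ± 0.18) and *nodal3.1* (-0.75 ± 0.32). *gdf3*, the gene for the maternal partner ligand of Nodal, was at 4814, 4581 and 5771 in Nodal/BMP LOF embryos, against 4820.0, 4413 and 5641 in control embryos. The coreceptor gene *tdgf1* was higher by 0.38 ± 0.09 (adjusted p = 0.0337). Among 14 tested genes for receptors, Smads and FoxH1, 1 was called, the type I receptor gene *acvr1* (-0.29 ± 0.08), and the 13 others ran from -1.01 to 0.23, the lowest being *bmpr2* with at most 12.6 counts in a library.

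The genes that Nodal is known to induce in mesendoderm and endoderm were mostly lower. All 4 Mix and Bix homeobox genes fell, between -2.60 and -2.05, with *mix1* at 5112, 5014 and 3987 counts in Nodal/BMP LOF embryos, against 23400, 18560 and 16160 in control embryos. Reads of these close relatives may be shared in the counting. Of 12 endoderm factors 8 were called lower and none higher, and the list had a median of -2.43. Without the block 7 were called lower, and without replicate 2 only 3. They included *sox17a* (-2.42 ± 0.30) and *sox17b* (-1.86 ± 0.22), which specify endoderm, and the GATA factor genes *gata4* (-2.54 ± 0.60), *gata5* (-2.57 ± 0.52) and *gata6* (-2.50 ± 0.49). *gata6* was at 1172, 1444 and 769 in Nodal/BMP LOF embryos, against 10070, 4883 and 3513 in control embryos, which shows how far the control level varied between replicates. The endoderm factors that were not called included *foxa1* (-1.86 ± 0.72), *foxa2* (-1.25 ± 0.48) and *sox7* (-0.33 ± 0.29).

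Mesoderm factors split into genes that fell by several fold and genes that did not pass the test. Of 16 tested, 6 were lower and none higher (median -0.95), but 3 were called without the block and none without replicate 2. The T-box gene *eomes* was at 3655, 5151 and 2654 counts in Nodal/BMP LOF embryos, against 17890, 20470 and 20120 in control embryos (-2.41 ± 0.36), and *vegt*, whose count here adds maternal and zygotic RNA, was at 29280, 30120 and 22440 against 81220, 67980 and 58010 (-1.35 ± 0.19). *mespa* (-2.12 ± 0.41), *mespb* (-3.08 ± 0.63), *foxc1* (-2.60 ± 0.66) and *snai1* (-1.71 ± 0.25), which act in paraxial mesoderm and cell movement, fell as well. The pan-mesodermal T-box gene *tbxt* (Brachyury) was at 9589, 9015 and 3914 in Nodal/BMP LOF embryos, against 23390, 13810 and 10540 in control embryos. Its change of -1.13 ± 0.61 was not called (adjusted p = 0.651), but was -1.1 ± 0.12 (adjusted p = 6.68e-05) in the fit of 12 libraries, and its intron counts were called lower. The caudal genes *cdx1*, *cdx2* and *cdx4*, which pattern the posterior, had changes of -0.77, 0.20 and 0.37 and were not called.

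The organizer, which forms in the dorsal marginal zone and secretes antagonists of BMP and Wnt ligands, was represented by 19 genes, of which 9 fell. Of 10 organizer transcription factors 4 were lower and 1, *hesx1*, higher (median -1.59). Without the block the same number were lower and none higher, and without replicate 2 none was called. *gsc* (goosecoid), a homeobox repressor gene, was at 306, 390 and 311.5 counts in Nodal/BMP LOF embryos, against 4904, 4205 and 4045 in control embryos (-3.72 ± 0.48). *lhx1* (-3.43 ± 0.66) fell by a similar factor. *sia1* and *sia2*, direct targets of maternal Wnt signaling, were at -0.70 ± 0.31 and -0.05 ± 0.55 and were not called, nor was the notochord gene *not* (-0.15 ± 0.20). Of 9 secreted antagonists 5 were lower and 1 higher (median -2.34). Without the block 2 were lower and without replicate 2 only 1, and in neither fit was one higher. *chrd* (chordin) was at 1598, 2039 and 2367 in Nodal/BMP LOF embryos, against 12080, 8705 and 8601 in control embryos (-2.34 ± 0.51). *nog* (noggin, -1.36 ± 0.31) and the Wnt antagonist gene *dkk1* (-2.41 ± 0.42) were lower too, with no overlap of the groups. *sfrp2*, another Wnt antagonist gene but one whose RNA is enriched in the animal hemisphere, rose by 0.82 ± 0.13. *frzb* (2123, 1388 and 1132 in Nodal/BMP LOF embryos, against 12730, 6818 and 5348 in control embryos) and the forkhead gene *foxa4* (6702, 6232 and 4054 against 29810, 21970 and 20070) did not overlap either, but missed the threshold (adjusted p = 0.262 and 0.193) in the fit of 24 libraries, which pools their spread with that of the embryos given a morpholino. In the fit of 12 libraries they changed by -2.37 ± 0.09 and -2.09 ± 0.09 and both were called.

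Among the FGF and Wnt ligands and feedback genes 5 of 12 were lower and none higher (median -0.67), with 1 lower without the block and none without replicate 2. These were *spry1*, *spry2* and *spry4*, feedback inhibitors of FGF signaling (-2.90 to -0.66), and the ligand genes *wnt8a* (-0.87 ± 0.23) and *wnt11b* (-0.75 ± 0.16). Of 10 adhesion, guidance and migration genes 4 fell (3 without the block and 1 without replicate 2), including the chemokine receptor gene *cxcr4* at 2930.0, 4761 and 3310 counts in Nodal/BMP LOF embryos, against 9117, 11120 and 9562 in control embryos (-1.47 ± 0.12), and the ephrin gene *efnb2* (-2.67 ± 0.45). *cxcr7*, the second receptor for the same chemokine, rose by 0.57 ± 0.14.

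Of 8 BMP ligand and feedback genes 1 was lower and 2 higher, and none was called without the block or without replicate 2. The ligand genes *bmp4* and *bmp7.2* rose: *bmp4* was at 5697, 5612 and 3591 counts in Nodal/BMP LOF embryos, against 4126, 3141 and 2464 in control embryos (0.61 ± 0.17), and *bmp7.2* was at 12710, 10810 and 13330 against 9378, 7130 and 9804 (0.49 ± 0.08). The groups overlapped for *bmp4* and did not for *bmp7.2*. *bmp7.1*, with at most 52.5 counts in a library, changed by -3.01 ± 0.81 and was called lower. Feedback genes that BMP signals are known to induce, *bambi* (-0.32 ± 0.23), *smad7* (-0.73 ± 0.28) and *szl* (-0.30 ± 0.60), were not called. Of 17 BMP-responsive transcription factors 9 were lower and none higher (median -0.76), and these included all 6 ventx homeobox genes, ventral repressors of dorsal genes, between -1.30 and -0.63. *ventx1.2* was at 999, 829 and 683 in Nodal/BMP LOF embryos, against 2897, 1513 and 1302 in control embryos, and *ventx3.1* at 672, 957 and 640.5 against 1099, 1352 and 1119. For these 2 genes the groups did not overlap, while they did for *ventx2.1* and *ventx2.2*. In the RefSeq gene order the 6 ventx genes stand side by side on chromosome 7, as do *mixer*, *mix1* and *bix1.2* on chromosome 5 and *nodal1* and *nodal2* on chromosome 3. The neighbours *hes7.2* and *hes7.1*, also on chromosome 3, were called in opposite directions, *hes7.2* lower and *hes7.1* higher. Neighbours of 1 gene family can share reads, so their calls should not be taken as independent, although their sequences were not compared. *id2* and *id3*, general BMP targets in other systems, were at 0.05 ± 0.23 and -0.01 ± 0.19. *gata2* (-2.94 ± 0.83), *gata3* (-2.85 ± 0.76) and *tbx2* (-1.59 ± 0.44) fell as well. In Nodal LOF alone *gata2* and *gata3* changed by a similar amount (-2.95 and -2.72), and in BMP LOF by -0.92 and -1.39. *tbx2* changed by -1.25 in Nodal LOF and -1.54 in BMP LOF. The list had only 1 gene called lower when replicate 2 was left out, and 1 without the block.

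**Figure D2:**
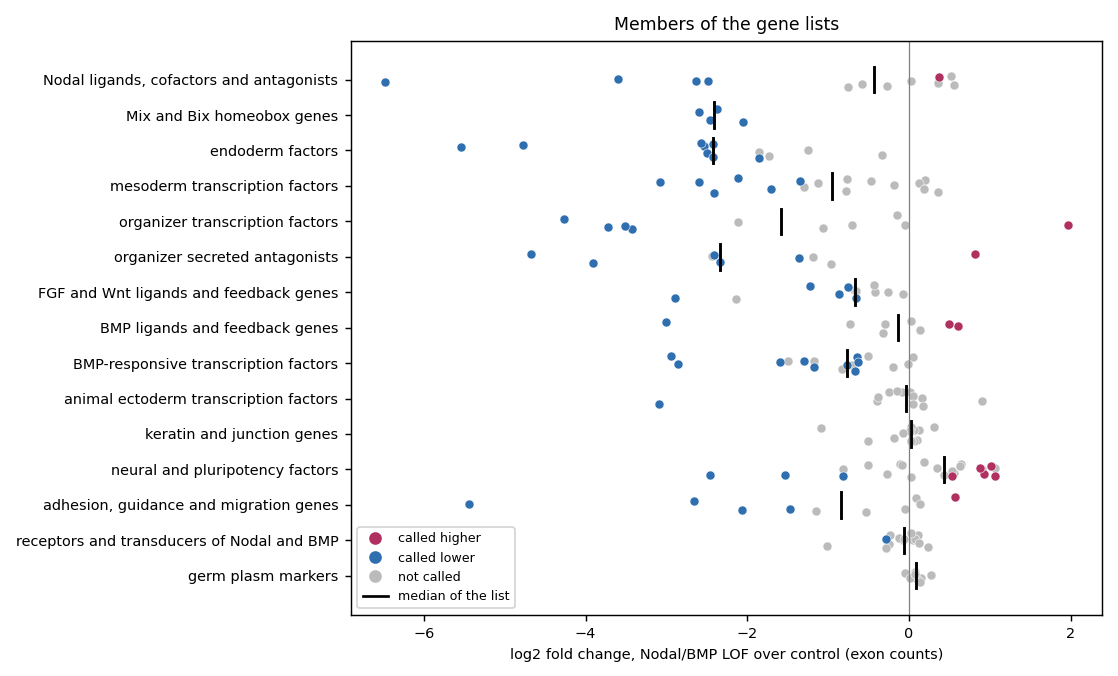
Log2 fold change of exon counts in Nodal/BMP LOF over control embryos for every tested member of 15 gene lists (points), called higher (red), called lower (blue) or not called (grey), with the median of each list as a black bar. Mix and Bix genes, endoderm factors and organizer antagonists have medians between -2.43 and -2.34, while keratin and junction genes, receptors and germ plasm markers lie near 0.

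Most animal ectoderm factors and keratin and junction genes did not pass the test. Of 12 animal ectoderm transcription factors 1 was called, *tfap2e* (-3.09 ± 0.62), and its RNA was enriched vegetally and dorsally in dissected embryos. The other 11 ran from -0.40 to 0.91, with *grhl3* at 7022, 7453 and 4622 counts in Nodal/BMP LOF embryos, against 9495, 9954 and 5419 in control embryos, and *tfap2a* at 14320, 13920 and 7657 against 15010, 11380 and 8053. The fit of 12 libraries called 3 of the 12 animal ectoderm factors lower and 2 higher. Of 14 keratin and junction genes it called 2 lower and 2 higher. The fit of 24 libraries called none of these 14 genes (median 0.03). The lowest of them was *krt5.7*, an epidermal keratin gene, at 3568, 5594 and 1329 counts in Nodal/BMP LOF embryos, against 10000.0, 8423 and 2212 in control embryos (-1.09 ± 0.69). *foxi1*, a gene of ionocytes and the outer ectoderm, was at 4207, 2362 and 798.5 in Nodal/BMP LOF embryos, against 2148, 1503 and 338 in control embryos. It was higher within each pair, but its change of 0.91 ± 0.76 was not called.

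Of 23 neural and pluripotency factors 5 were higher and 3 lower, with a median of 0.44. The SoxB1 gene *sox2*, which marks and maintains neural progenitors, was at 3526, 4118 and 2075 counts in Nodal/BMP LOF embryos, against 2303, 1795 and 827 in control embryos (1.01 ± 0.23, adjusted p = 0.0282). *sox11*, a SoxC gene of early neural tissue, was at 13470, 13600 and 9604 in Nodal/BMP LOF embryos, against 7020, 7469 and 4890 in control embryos (0.93 ± 0.10). The groups did not overlap for *sox11* and did for *sox2*. *sox21* (0.88 ± 0.12), *otx1* (0.54 ± 0.14) and *lhx5* completed the rises. Among those that fell, *irx3* (-2.46 ± 0.54) and *zic2* (-0.81 ± 0.12) did not overlap between groups. The 3 POU factor genes *oct91*, *oct25* and *oct60*, which keep blastula cells uncommitted, were at -0.27, 0.02 and -0.09. Without replicate 2, 2 genes of the list were called higher and none lower, and without the block 1 in each direction.

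The position of genes along the animal-vegetal axis was read from expression ratios, taken as log2 values since their base is not stated, that came from dissected embryos of another data set and were available for 1845 genes, all of them reduced by α-amanitin. At least 3-fold enrichment placed 342 genes in the animal hemisphere, all of which passed the filter on low counts. Of these, 28 were called higher (8.19%) and 4 lower (1.17%) in Nodal/BMP LOF embryos. Among 198 vegetal or marginal genes 1 was called higher and 88 lower (44.4%), and among 1305 genes with a ratio under 3-fold 10 were higher and 30 lower. Over all 1845 genes with a ratio 2.11% were called higher and 6.61% lower. Of the called genes with a ratio, 28 of the 39 rises were animal and 88 of the 122 falls vegetal or marginal. Both counts depended on the fit: without the block 6 animal genes were higher and 34 vegetal or marginal genes lower, without replicate 2 4 and 18, and with the 12 libraries 87 and 126. In Nodal LOF alone 91 of the 198 vegetal or marginal genes were called lower. Over the 1845 genes with a ratio Nodal LOF called 121 lower, and over all 16001 genes tested 331. No test between regions was made.

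By a fixed 1.5-fold change of mean counts, without a test, 13.3% of 338 animal genes were higher and 2.96% lower in Nodal/BMP LOF embryos. Of 193 vegetal or marginal genes 63.2% were lower and 0.52% higher. Among 13540 genes measured 4.22% were lower and 1.27% higher, and among the 1825 of them with a regional ratio 9.7% and 3.18%. Within the 3 replicate pairs, the share of animal genes that were higher was 14.4% ± 4.88 and that of vegetal or marginal genes that were lower 60.6% ± 4.05 (mean ± SD, n = 3 pairs). The median vegetal or marginal gene stood at 46.2% of its control level and the median animal gene at 106%. The rise of animal genes was modest in size: 153 of 342 (44.7%) were higher in all 3 pairs, and 45 of 338 reached 1.5-fold. Of the 1845 genes with a regional ratio 480 were higher in all 3 pairs, and of the 1305 under 3-fold 317 were. Among all genes tested this share was 17.5%. On the other axis 51.0% of 51 dorsal genes and 45.5% of 22 ventral genes were lower, with 13.7% and 4.55% higher.

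**Figure D3:**
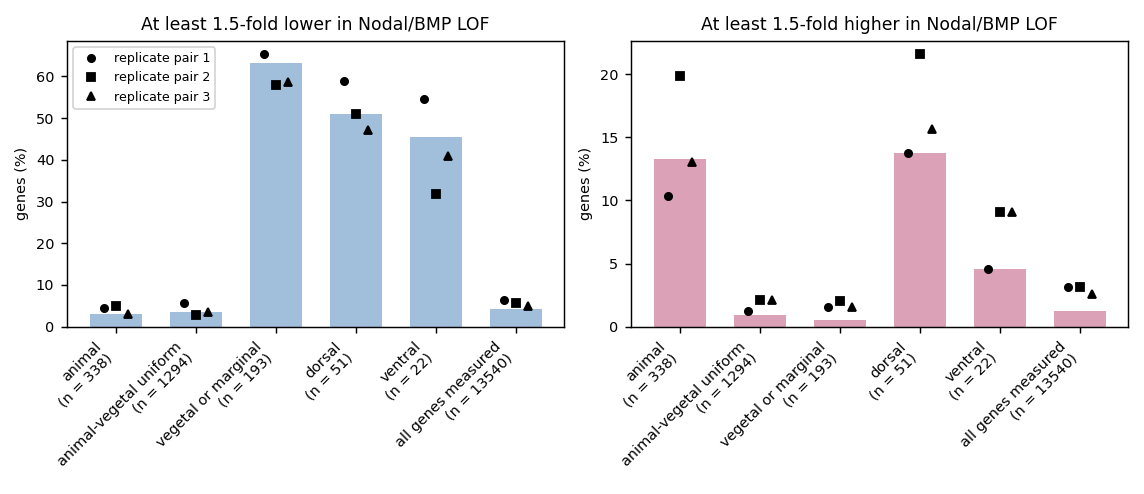
Share of genes (%) at least 1.5-fold lower (left) or higher (right) in Nodal/BMP LOF over control embryos by region of expression; bars use group means and symbols give the 3 replicate pairs. Vegetal or marginal genes reach 63.2% lower, and animal genes 13.3% higher in contrast to 0.52% of vegetal or marginal genes.

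The 28 animal genes called higher ranged from 0.36 to 1.57. They contained the receptor gene *fzd4*, the transcription factor genes *sall3*, *lhx5*, *sox2* and *sox11*, the cell surface genes *alcam* (0.95 ± 0.20), *rgma* (0.50 ± 0.09) and *p2ry2* (0.59 ± 0.08), the matrix gene *hapln3* (0.58 ± 0.09), and the cell cycle genes *cdc25b* (0.75 ± 0.19) and *ccne2* (0.57 ± 0.15). *cdc25b*, which encodes a phosphatase that starts mitosis, was at 7865, 10630 and 7542 counts in Nodal/BMP LOF embryos, against 4280.0, 6957 and 4385 in control embryos. *ccne2*, the gene for cyclin E2, was at 19000, 21680 and 17540 against 13540, 12910 and 12440. *p2ry2*, a nucleotide receptor gene, was at 3874, 3707 and 2617 against 2440, 2448 and 1838. The groups did not overlap for any of these 3 genes. The coagulation factor gene *f3* (1.04 ± 0.29) and the zinc finger gene *klf2* (0.64 ± 0.17), *nedd9* (0.65 ± 0.09), *slc7a5* (0.49 ± 0.08), *trim36* (0.41 ± 0.08), *dyrk2* (0.36 ± 0.09), *arhgef40* (1.03 ± 0.21), *ebpl* (0.82 ± 0.23), *c13orf15* (0.54 ± 0.08), *sfrp2* and *tdgf1* were among the rest, with 6 genes that have no symbol. In Nodal LOF alone 13 of the 342 animal genes were called higher, beside 18 of 1845 with a ratio and 34 of 16001 tested. There *cdc25b* changed by 0.75 and *tdgf1* by 0.35, close to their changes in Nodal/BMP LOF. *fzd4* (0.78) and *sox2* (0.31) changed less in Nodal LOF than in Nodal/BMP LOF. The 4 animal genes called lower in Nodal/BMP LOF were *adora2a*, *serpinh1*, *dvl3* and *kiaa1543* (-1.26 to -0.18). The vegetal gene called higher was *plod2*, at 1713, 1419 and 1253 in Nodal/BMP LOF embryos, against 397, 366 and 388 in control embryos, with no overlap.

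Intron counts, which mostly reflect RNA that is not yet spliced, gave a similar picture. In introns 483 of 11499 genes tested (4.2%) were lower and 119 (1.03%) higher. Of the genes called lower in exons 268 could be tested in introns, 241 were lower there too and 175 were called. Of those called higher 74 could be tested, 64 were higher and 27 were called, and no gene was called in opposite directions. The median change of the called falls was -1.53 in introns and -1.30 in exons of the same genes, and that of the called rises 0.57 in both. *hhex* introns were at 2.08, 6.0 and 0.906 counts in Nodal/BMP LOF embryos, against 296, 289 and 254 in control embryos, and *lhx5* introns at 7276, 6598 and 6562 against 4160.0, 3701 and 4232. Some members differed between the readouts: *krt8* was at -0.08 ± 0.11 in exons and -1.21 ± 0.29 in introns, and *id2* at 0.05 ± 0.23 and -1.32 in introns, where it was called lower. In the 4sU data of the series, the median ratio of newly made to input RNA at stage 10+ was 5.55 for the genes called lower and 5.82 for those called higher, beside 0.669 for all genes tested, with 1 library of each kind and no replicate check.

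**Figure D4:**
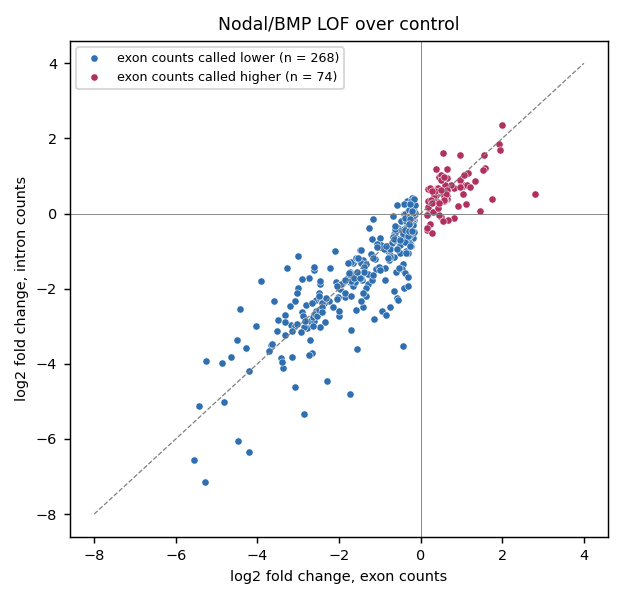
Log2 fold change of intron counts against that of exon counts, Nodal/BMP LOF over control embryos, for the genes called lower (blue, n = 268) or higher (red, n = 74) in exon counts and tested in introns; the dashed line marks equal changes. Of the 268 genes 241 lie below 0 in introns, and 64 of the 74 lie above 0.

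Nodal/BMP LOF was next set beside the single losses, all of which share the control libraries. The following medians are a description, since the genes were chosen by their call in Nodal/BMP LOF. Among the 360 genes called lower the median change against control was -1.56 in Nodal/BMP LOF, -1.57 in Nodal LOF and -0.36 in BMP LOF. Among the 92 genes called higher it was 0.64, 0.37 and 0.20, and among all genes tested 0.00 in each. *cer1* changed by -6.48, -6.73 and -0.74, and *gsc* by -3.72, -4.07 and -0.07, in the same order. Against BMP LOF, 99 genes were lower (0.619%) and 26 higher (0.162%) in Nodal/BMP LOF (24 and 2 without the block, 14 and 1 without replicate 2). The 5 largest falls were *cer1*, *hhex*, *pcdh8.2*, *slc12a3.2* and *plekhg5*, and the 5 largest rises *plod2*, *ggh.2*, *cyp26a1*, *fzd4* and *meis3*.

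Against Nodal LOF no gene was called in the fit of 24 libraries. There 687 of 16001 genes (4.29%) had an unadjusted p under 0.05, a share no larger than that threshold gives without any change. That share cannot show that nothing changed, since it depended on the fit. In the fit of 12 libraries 2537 of 15477 genes had such a p. DESeq2 on the 6 libraries compared called 442 lower and 401 higher of 14639 genes tested. The spread in the fit of 24 libraries includes the embryos given a morpholino, and the common dispersion was 0.0164 over 24 libraries and 0.00385 over the 12 without it. In the fit of those 12 libraries, added after seeing the data, 100 genes were lower (0.646%) and 131 higher (0.846%) in Nodal/BMP LOF than in Nodal LOF. The values that follow come from it, and the genes named were chosen after their values were seen.

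Of 23 neural and pluripotency factors 9 were above Nodal LOF and 1 below. Against control embryos the same fit called 12 of the 23 higher and 4 lower. The genes named next all stood above Nodal LOF, so they show only 1 direction. *sox11* was at 13470, 13600 and 9604 counts in Nodal/BMP LOF embryos, against 10410, 9526 and 7131 in Nodal LOF embryos (0.44 ± 0.06, adjusted p = 0.0049). *lhx5* was at 14970, 13990 and 11530 against 11590, 8391 and 8442 (0.52 ± 0.06). *zic1*, a zinc finger gene of the neural plate, was at 10010, 9368 and 7672 against 6737, 5116 and 5511 (0.64 ± 0.08), and *hesx1*, an organizer list member, at 59.6, 104 and 78.1 against 24.1, 32.8 and 27.4 (1.50 ± 0.28). For *zic1* and *hesx1* the groups did not overlap. For *sox11* and *lhx5* the Nodal/BMP LOF library of replicate 3 lay below the highest Nodal LOF library, but each pair was higher. *sox2* (0.70 ± 0.15), *sox3* (0.23 ± 0.06), *irx2* (0.74 ± 0.13) and *foxd4l1.1* (0.82 ± 0.08) were higher as well.

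Some organizer and mesoderm genes that fell in both treatments were less reduced in the double loss. Of 10 organizer transcription factors 4 stood above Nodal LOF, among them *hesx1*, which did not fall in either treatment. Of 16 mesoderm factors 2 stood above Nodal LOF, and no member of either list stood below. *crx*, a homeobox gene related to *otx2*, was at 6133, 5097 and 3183 counts in Nodal/BMP LOF embryos, against 3212, 2215 and 1556 in Nodal LOF embryos and 14260, 8780 and 6727 in control embryos. Its difference from Nodal LOF was 1.06 ± 0.07 (adjusted p = 1.00e-04). *otx2* (1.17 ± 0.22), *foxa4* (0.65 ± 0.09), *lefty* (0.74 ± 0.13), *epha4* (0.65 ± 0.11) and *tbxt* (0.50 ± 0.12) also stood above Nodal LOF. Lower than in Nodal LOF were 3 of 17 BMP-responsive transcription factors, 4 of 12 animal ectoderm factors and 1 of 14 keratin and junction genes, with none higher, while of 8 BMP ligand and feedback genes 2 were lower and 2 higher. Among these *ventx2.1* (-0.35 ± 0.04), *ventx1.1* (-0.46 ± 0.09), *bambi* (-0.41 ± 0.06), *grhl3* (-0.53 ± 0.09), *foxi4.2* (-0.43 ± 0.08) and *klf17* (-0.34 ± 0.04) were lower.

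Whether the 2 losses add up on the log2 scale was asked with the interaction of both inhibitors. It called no gene in the fit of 24 libraries. There 859 of 16001 genes (5.37%) had an unadjusted p under 0.05, close to the share that threshold gives without any interaction. This share depended on the fit too: with 12 libraries 3009 of 15477 genes had such a p. DESeq2 on the 12 libraries without morpholino called 625 lower and 517 higher of 15477 genes tested. By edgeR in the same 12 libraries, of 15477 genes tested, 526 were below and 463 above the sum of the single changes. For *sox11* and *lhx5* the interaction was not called: it was 0.02 (95% interval -0.16 to 0.19) for *sox11* and 0.09 (-0.09 to 0.28) for *lhx5*. The caudal gene *cdx4* was at 1233, 833 and 338 counts in Nodal/BMP LOF embryos, 908, 628 and 328 in Nodal LOF embryos, 497, 219 and 145 in BMP LOF embryos and 1280.0, 430.1 and 223 in control embryos. In the 12 libraries its change in BMP LOF was -1.05 ± 0.20 (adjusted p = 0.0371), although the BMP LOF and control libraries overlapped, and its interaction was 1.36 ± 0.27 (adjusted p = 0.0449). *ventx1.2* and *ventx2.1* changed by -1.12 and -0.63 in Nodal/BMP LOF and by -1.38 and -0.77 in BMP LOF, with interactions of 1.06 ± 0.19 and 0.42 ± 0.06. *crx*, *otx2* and *foxa4* had interactions of 1.26 ± 0.10, 1.62 ± 0.26 and 0.91 ± 0.13.

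**Figure D5:**
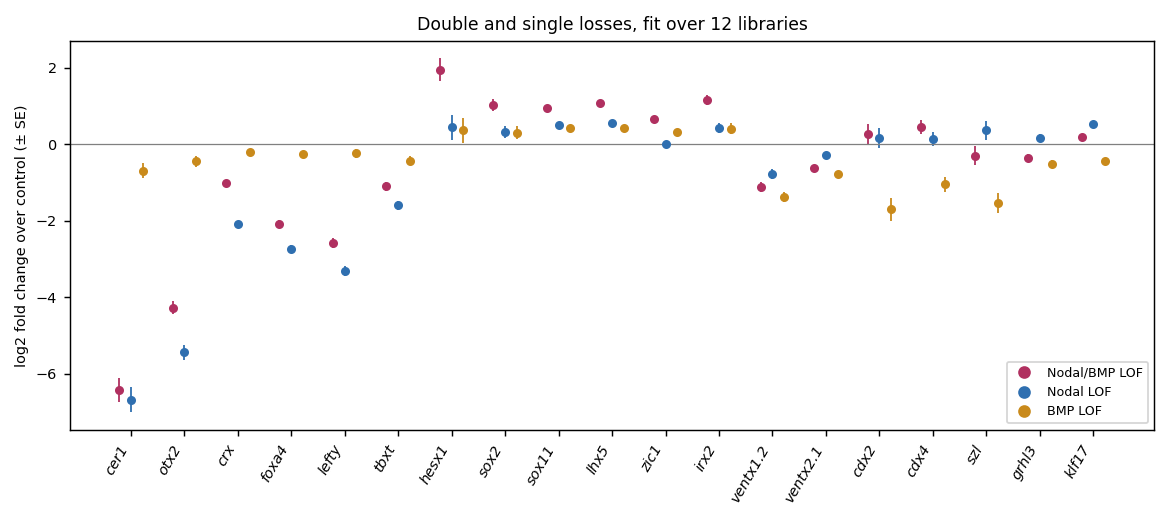
Log2 fold change over control embryos (± SE) in Nodal/BMP LOF (red), Nodal LOF (blue) and BMP LOF (yellow) for 19 list members, from the fit of 12 libraries. *hesx1*, *sox2*, *sox11*, *lhx5*, *zic1* and *irx2* are highest in Nodal/BMP LOF, *crx*, *otx2*, *foxa4* and *lefty* lowest in Nodal LOF, and *cdx2*, *cdx4* and *szl* lowest in BMP LOF.

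Germ plasm RNAs are maternal and mark the future germ cells. In the fit of 24 libraries none of the 8 markers was called in Nodal/BMP LOF against control embryos (-0.05 to 0.28, median 0.09). The fit of 12 libraries called 1 higher and 0 lower, as did the main fit without replicate 1. None of the 8 markers was at 0. Their sum was 596, 650 and 739 CPM of exon counts in Nodal/BMP LOF embryos, 712, 699 and 751 in Nodal LOF embryos, 652, 706 and 935 in BMP LOF embryos and 493, 619 and 727 in control embryos. The marker *velo1* was at 3326, 3919 and 4600 counts in Nodal/BMP LOF embryos, against 2254, 4050 and 4860 in control embryos, and its interaction in the 12 libraries was -0.88 ± 0.16 (adjusted p = 0.0449). The sums were higher in Nodal/BMP LOF than in control embryos in each pair. The gap was smaller than that between the lowest and highest replicate of either group, though not than every difference between replicates. The part of these sums in the results was not tested.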

How the data were processed

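Poly(A) RNA of the late blastula was sequenced in 8 groups of 3 libraries. For these libraries the authors used STAR 2.5.3a, aligning read pairs to genome assembly v7.1, and counted them on exons and introns with VERSE without regard to strand. The deposited counts were not normalized. Overlapping genes and close paralogs can share reads. Separately, the deposited counts of 4sU-labelled and input RNA gave ratios for genes with at least 10 input counts.

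Counts were analysed in R 4.3.3 with edgeR 4.0.16 (TMM, filterByExpr, quasi-likelihood fit of condition and replicate number over 24 libraries, Benjamini-Hochberg adjustment, called at 0.1). The replicate numbers come from the labels, and the file names give each number its own frog. The study fitted the condition alone. DESeq2 1.42.0 gave size factors and likelihood ratio tests, on the 6 libraries of each comparison or the 12 of the interaction, as alternatives. Scaling moved the median log2 change by under 0.02 (0.0044 with TMM and 0.0105 with DESeq2). Regional shares used group means after DESeq2 scaling, over genes for which no control library was under 10. A value of 0.5 was added before ratios within pairs.

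The largest changes are the 10 per direction (5 for other comparisons) among called genes that carry a symbol, average 50 or more normalized counts and move in 1 direction in all 3 pairs; further names are list members and the called animal genes. Regional ratios came from the readable part of a table of the study. The members and lists were chosen with earlier results of these data known. Of 204 list symbols 197 were found and 184 tested. The treatment labels of 2 Nodal/BMP LOF replicates give other compound numbers, read as LDN193189. The study lists the 3 libraries of each group as biological replicates collected by hand. Only the file names say how these were separated, so p-values measure the spread between these libraries. No 2 of the 6 libraries were copies (at least 26.3 times counting noise in 15 pairs). A planned search for motifs in promoters was not run. Some list members are counted but not reported by name here.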

Additional observations from a re-analysis of the deposited data

How the results depend on the processing

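The number of genes called depended on the fit. Their direction says little here, since 354 of the 360 falls and all 92 rises had the same direction in all 3 pairs. Among the 98 named genes called, 41 were still called without the replicate block, 94, 21 and 58 without replicate 1, 2 and 3, and 67 of 84 in introns, where *ebpl* had the opposite sign (-0.13) with no call. For Nodal/BMP LOF against control in exons, genes called lower and higher numbered 81 and 11 without the replicate block, and, on the 6 libraries compared, 215 and 32 by DESeq2 without it, 434 and 162 by DESeq2 with it and 460 and 166 by edgeR. An adjusted p of at most 0.05 gave 244 and 59, and leaving out a replicate number or a library gave 39 to 429 and 8 to 176. The 12 libraries without morpholino, in every comparison a fit chosen after seeing the data, gave 784 and 452. In introns the counts were 230 and 27 without the block, 725 and 336 with 12 libraries, 427 and 76 by DESeq2 on 6, and 153 to 418 and 10 to 94 with a replicate left out. Against Nodal LOF they were 100 and 131 with 12 libraries, 995 and 791 with 6 (also chosen after seeing the data), and 442 and 401 by DESeq2 on those 6. With a replicate left out of the fit of 24 libraries, 0 were lower and 0 to 2 higher. Against BMP LOF they were 24 and 2 without the block, 625 and 433 with 12 libraries, 1024 and 661 with 6 (chosen likewise), 645 and 402 by DESeq2 on those 6, and 14 to 324 and 1 to 192 with a replicate left out. The interaction gave 526 and 463 with 12 libraries, 625 and 517 by DESeq2 on the same 12, and 0 with any replicate left out of the fit of 24 libraries. In no comparison was a replicate left out of a fit of 12 or 6 libraries. List members called were 30 lower and 1 higher without the block, 62 and 7 in introns, and 13 to 62 and 2 to 15 with a replicate left out. Of animal genes 5.19% were lower in introns, and 2.36% to 4.12% with a replicate left out. Of vegetal or marginal genes 73.5% were lower and 4.76% higher in introns, 51.2% and 1.18% at a regional ratio of at least 2-fold, and 59.0% to 64.2% and 0.51% to 1.04% with a replicate left out. The cause of these differences was not tested. Genes of few counts, such as *bmpr2*, limit what 3 pairs can show.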
